A study of Mus musculus with 6 samples.

Results

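Cadherins are calcium-dependent adhesion proteins of the cell surface, and the 61 genes described here are cadherins and protocadherins in a comparison of the mouse nucleus accumbens after cocaine with that after saline. They were chosen by gene symbol (Cdh, Pcdh, Celsr, Fat or Dchs followed by its number or letters) from the 23479 genes whose comparison the authors marked as tested; the difference between the groups was not part of the rule. In all, 66 symbols matched. Cdh1, Cdh16, Cdh17 and Cdh29 were left untested by the authors at levels under 1 FPKM, and the fit for Pcdh15, listed at 0 in both groups, was marked as failed. The 61 members comprise 8 genes of the Celsr, Fat and Dachsous families, 11 non-clustered protocadherins, 24 entries of the clustered protocadherins, 15 classical cadherins and 3 other cadherins.

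The nucleus accumbens, a part of the ventral striatum built mainly of inhibitory projection neurons, was dissected from male C57BL/6 mice that were 11 weeks old. The cocaine group received intraperitoneal cocaine at 20 mg/kg over 1 week and the saline group received saline, and total RNA was sequenced after 24 h of withdrawal. Each group held 3 pools, each of the accumbens of both hemispheres of 5 mice, or 15 mice per group. All mice of a cage received the same injection, so cage and treatment cannot be told apart. The table used here holds 1 expression value per gene and group in FPKM, a fragment count scaled by transcript length and by sequencing depth, so the spread between pools cannot be shown. Depth per library is not known from it.

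Classical cadherins bind a like cadherin on the neighbouring cell and join the actin cytoskeleton through beta-catenin and alpha-catenin. The clustered protocadherins lie in tandem arrays (alpha, beta and gamma), and each neuron is known to choose a small set of their promoters, with CTCF and cohesin, so that its surface carries a recognisable combination. Non-clustered delta protocadherins act in axon sorting and synapse formation and signal in part through the WAVE actin regulatory complex. Celsr, Fat and Dachsous proteins are giant cadherins of planar cell polarity, the system that orients cells and, in the brain, long axon tracts. In the striatum these families guide afferent and efferent fibres and shape synapses during development, and many are still expressed in adults.

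All 61 members were above 0 in both groups, 51 had a mean of at least 1 FPKM and 14 of at least 10 FPKM. The gamma protocadherin entry stood at 174.5 FPKM in cocaine and 184.4 FPKM in saline, the highest level among the members. Cdh13 followed with 69.9 FPKM in cocaine and 72.9 FPKM in saline, and Celsr2 with 53.3 FPKM in cocaine and 69.1 FPKM in saline. Below 1 FPKM lay 10 members, among them Fat2, Fat4, Cdh3, Cdh12, Cdh23, Cdh26 and Pcdh12. The summed FPKM of the members was 664.5 in cocaine and 755.7 in saline.

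**Figure D1:**
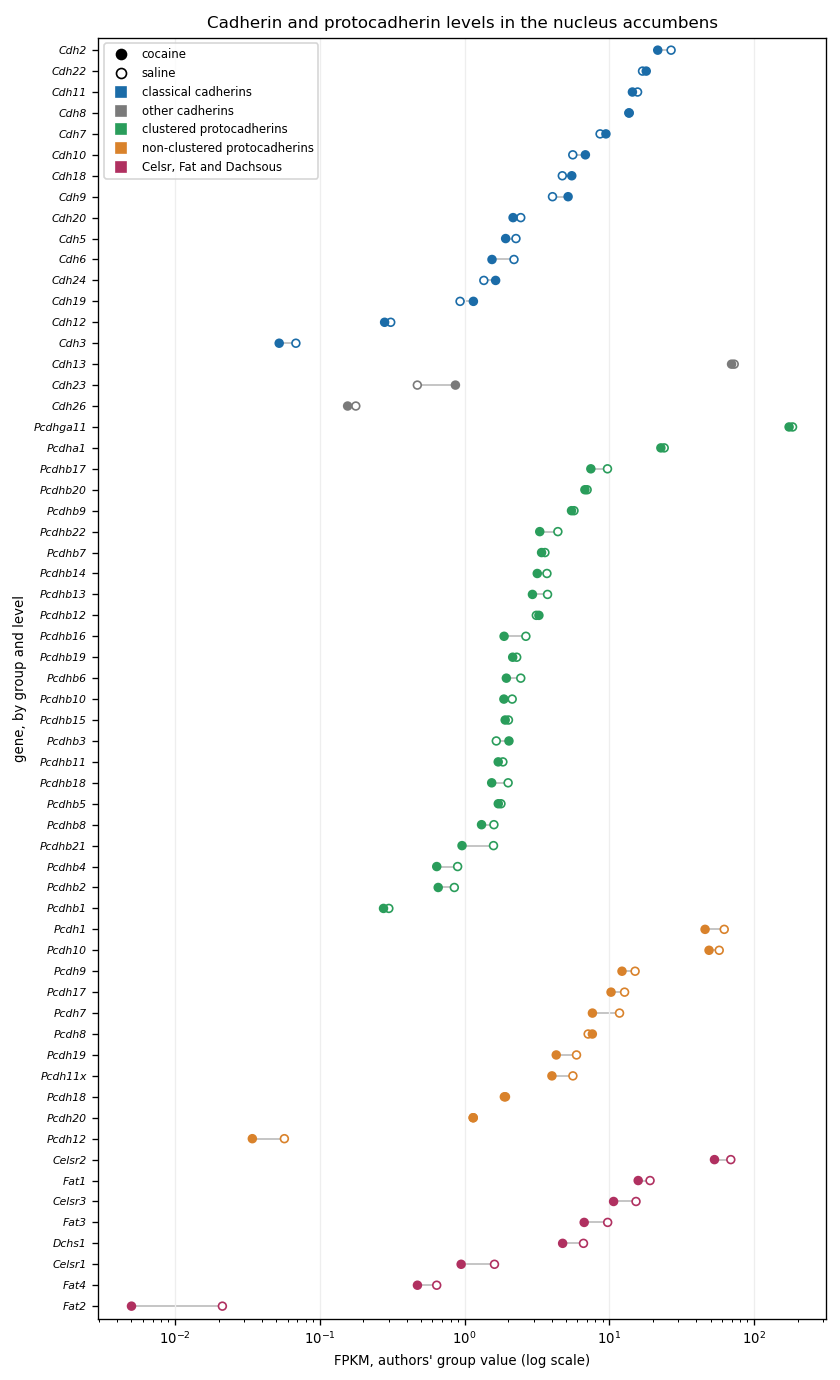
FPKM of each of the 61 members (log axis), filled points for cocaine and open points for saline, 1 value per group, coloured by family and ordered by level within it. The points of the 8 Celsr, Fat and Dachsous genes are lower in cocaine than in saline in each case, while those of the classical cadherins lie on both sides.

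In the authors' deposited table, 12 of the 61 members were lower in cocaine at q under 0.05 and 0 were higher. Over all genes tested 5.76% were called lower and 6.1% higher by the same rule. All 12 were among the 51 members with a mean of at least 1 FPKM, and of all genes above that level 7.27% were called lower and 7.52% higher. At an unadjusted p under 0.05 the counts were 21 lower and 2 higher, and the 2 higher ones were Cdh9 and Cdh10. The share of all genes at that unadjusted p was not computed. The 12 called members were between 1.21-fold and 1.70-fold higher in saline, with a median of 1.39-fold, and 3 of them differed by at least 1.5-fold. Of the 51, 40 had a log2 ratio of cocaine over saline below 0 and the median was -0.19, whereas 44.8% of all genes at that level lay below 0 and their median was 0.04. Fewer cells of a type and less RNA per cell cannot be told apart in whole tissue.

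The count depended on which entries were read. Only 7 of the 12 called members were alone in the interval the authors print, and 5 shared it with other annotated genes (Dchs1, Fat1, Cdh2, Pcdh1 and Pcdh19). The other genes in the intervals of Fat1, Cdh2, Pcdh1 and Pcdh19 were all listed under 1 FPKM. At q under 0.01 there were 6 lower members, against 4.05% of all genes, and at q under 0.1 there were 18, against 6.93% of all genes.

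**Figure D2:**
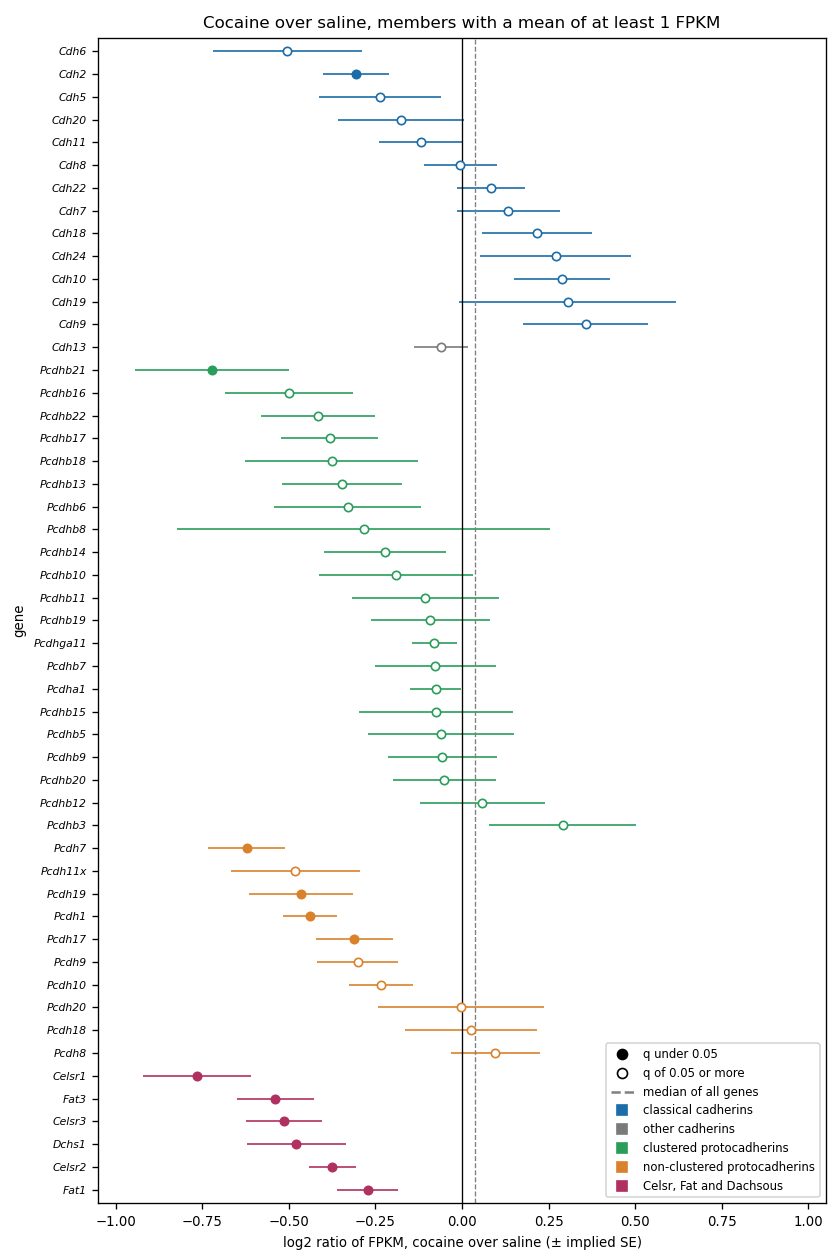
Log2 ratio of cocaine over saline for the 51 members with a mean of at least 1 FPKM, with the standard error implied by the authors' statistic. Filled points have q under 0.05, and the dashed line is the median of all genes at that level, 0.04. All 12 filled points lie below 0, and 6 of them are the Celsr, Fat and Dachsous genes at the bottom.

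All 8 Celsr, Fat and Dachsous genes were lower in cocaine, and 6 of them were called at q under 0.05. These 6 were the ones that reached a mean of 1 FPKM, with a median log2 ratio of -0.50. Celsr2, the flamingo-type cadherin with the highest level of the 3 Celsr genes, was at 53.3 FPKM in cocaine and 69.1 FPKM in saline, a log2 ratio of -0.37 ± 0.07. Here and below, ± gives the standard error implied by the authors' statistic (the size of the log2 ratio divided by that of the statistic), since no other error can be had from 1 value per group. Celsr3, which mouse mutants show to be needed for forebrain axon tracts, was at 10.7 FPKM in cocaine and 15.3 FPKM in saline (log2 ratio -0.51 ± 0.11). Celsr1, known for ependymal and epithelial polarity, was at 0.947 FPKM in cocaine and 1.61 FPKM in saline (-0.76 ± 0.16), the ratio farthest below 0 among the called members. The q values were 7.68e-07 for Celsr2, 7.40e-05 for Celsr3 and 2.55e-05 for Celsr1 in the authors' deposited table.

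Fat proteins and Dachsous proteins bind each other across cell borders as ligand and receptor. Fat3, which in the mouse retina shapes the dendrites of amacrine cells, was at 6.70 FPKM in cocaine and 9.74 FPKM in saline (log2 ratio -0.54 ± 0.11). Fat1, a regulator of actin at cell contacts, was at 15.8 FPKM in cocaine and 19.1 FPKM in saline (-0.27 ± 0.09), the smallest difference of the 6. Dchs1 was at 4.76 FPKM in cocaine and 6.63 FPKM in saline (-0.48 ± 0.14). In the authors' deposited table q was 2.50e-05 for Fat3, 0.0211 for Fat1 and 0.0104 for Dchs1. The interval of Dchs1 also holds Mrpl17, a mitochondrial ribosomal protein gene at 21.9 FPKM in cocaine and 16.1 FPKM in saline, which was called higher with q of 0.0268 in the authors' deposited table. Fat4, the usual partner of Dchs1, was low at 0.473 FPKM in cocaine and 0.642 FPKM in saline and was not called (q of 0.13 in the authors' deposited table). Fat2, a cerebellar gene, was near 0 with 0.00500 FPKM in cocaine and 0.0212 FPKM in saline.

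On mm9 these genes are spread over the genome, Celsr1 at chr15:85729188-85864207, Celsr2 at chr3:108193769-108218470, Celsr3 at chr9:108728651-108755294, Dchs1 at chr7:112901503-113012164, Fat1 at chr8:46035562-46137611 and Fat3 at chr9:15714649-16182681. The promoters below show what lies at the starts of the called members with the lowest q that have an annotated window, beside the most abundant classical cadherin with one that was not called, Cdh22. Each is the 300 bases from 250 before to 50 after the gene start in RefSeq on GRCm38.p6, printed 5′ to 3′ on the strand of the gene. Capitals mark the GC box GGGCGG, the core bound by Sp-family factors, read on either strand.
Celsr2, chr3:108415530-108415829, minus strand: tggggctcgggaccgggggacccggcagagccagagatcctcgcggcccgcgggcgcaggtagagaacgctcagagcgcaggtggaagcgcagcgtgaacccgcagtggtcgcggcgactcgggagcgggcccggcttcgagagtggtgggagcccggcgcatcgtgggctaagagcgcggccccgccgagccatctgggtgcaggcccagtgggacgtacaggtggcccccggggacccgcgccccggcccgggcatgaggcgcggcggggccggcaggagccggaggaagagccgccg
Pcdh7, chr5:57717831-57718130, plus strand: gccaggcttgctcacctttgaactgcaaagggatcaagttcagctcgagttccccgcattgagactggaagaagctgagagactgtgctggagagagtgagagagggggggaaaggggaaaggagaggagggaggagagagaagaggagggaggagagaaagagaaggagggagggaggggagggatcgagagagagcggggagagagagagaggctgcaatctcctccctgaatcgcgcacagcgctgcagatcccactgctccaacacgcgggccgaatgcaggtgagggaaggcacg
Fat3, chr9:16502005-16502304, minus strand: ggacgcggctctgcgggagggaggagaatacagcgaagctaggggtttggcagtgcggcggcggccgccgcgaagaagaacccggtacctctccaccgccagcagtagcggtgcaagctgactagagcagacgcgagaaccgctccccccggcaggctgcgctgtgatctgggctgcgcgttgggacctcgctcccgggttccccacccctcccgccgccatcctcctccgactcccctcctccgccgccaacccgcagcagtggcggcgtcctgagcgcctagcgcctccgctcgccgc
Celsr3, chr9:108825795-108826094, plus strand: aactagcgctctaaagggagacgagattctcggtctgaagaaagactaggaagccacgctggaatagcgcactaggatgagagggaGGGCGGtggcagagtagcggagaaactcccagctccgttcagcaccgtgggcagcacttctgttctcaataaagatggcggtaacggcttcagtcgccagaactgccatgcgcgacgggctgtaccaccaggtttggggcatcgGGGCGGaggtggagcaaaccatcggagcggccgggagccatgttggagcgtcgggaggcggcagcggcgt
Cdh22, chr2:165234688-165234987, minus strand: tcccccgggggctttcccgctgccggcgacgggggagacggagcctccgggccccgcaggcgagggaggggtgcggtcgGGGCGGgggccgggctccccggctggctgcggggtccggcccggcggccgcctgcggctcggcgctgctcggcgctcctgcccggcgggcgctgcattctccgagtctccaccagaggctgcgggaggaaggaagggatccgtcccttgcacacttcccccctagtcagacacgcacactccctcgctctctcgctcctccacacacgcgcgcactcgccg

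The windows differ in their CpG content, with 40 CpG in Celsr2, 35 in Fat3, 25 in Celsr3, 11 in Pcdh7 and 38 in the uncalled Cdh22. Chromosome 18 was left out of this reading, and with it 27 members, among them the called Pcdh1, Cdh2 and Pcdhb21. Of the other 34 members 26 had a window, 7 of them called. The median CpG count was 25 over the 7 called members, 13 over the 19 uncalled ones and 7 over all 32851 windows of the table. The GC box stood in 3 of the 7 called members and in 6 of the 19 uncalled ones, against 35.7% of all windows. The cyclic AMP response element TGACGTCA, a palindrome, was in 0 of the 26 windows and in 1.79% of all windows. These are matches of letters in short windows, and differences in them between called and uncalled members were not tested.

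These genes have unusually long transcripts, and the ratio of cocaine over saline moved with transcript length across all genes. With genes at a mean of 1 FPKM or more placed in 10 classes of equal number by longest annotated transcript, the median log2 ratio was 0.21 in the shortest class and -0.19 in the longest, which begins at 6662 nucleotides. The share called lower was 29.6% in the longest class and 1.32% in the shortest, and the share called higher was 3.66% in the longest and 10.8% in the shortest. Of the members, 14 fell in the longest class, and 9 of the 12 called members were among them. The 6 called Celsr, Fat and Dachsous genes had transcripts between 10598 and 18760 nucleotides. Among genes of at least 10000 nucleotides at the same minimum of 1 FPKM, 138 of 314 were called lower (43.9%) and 7 higher. Their median log2 ratio was -0.30, and this length limit was chosen after the data were seen. All 8 members in that set were called lower, with a median of -0.47. The median of the other 306 genes was -0.29 and 42.5% of them were called lower. Fat2, Fat4 and Cdh23 are also of that length, but lay under 1 FPKM and were not called.

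Relative to the median of its length class, the log2 difference was -0.58 for Celsr1, -0.35 for Fat3, -0.33 for Celsr3, -0.29 for Dchs1, -0.19 for Celsr2 and -0.08 for Fat1. That difference was smaller than the implied standard error for Fat1 and ran from -2.02 to -3.69 in units of that error for the other 5. Their class has a median length of 8190 nucleotides, while these 6 genes have at least 10598. The median log2 ratio was -0.19 in the class but -0.29 in the 306 other genes of at least 10000 nucleotides. The centring thus takes off less than the median of genes of similar length. After the centring the family median was -0.31, against -0.50 before it. The part of transcript length in these differences was not tested beyond these values.

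**Figure D3:**
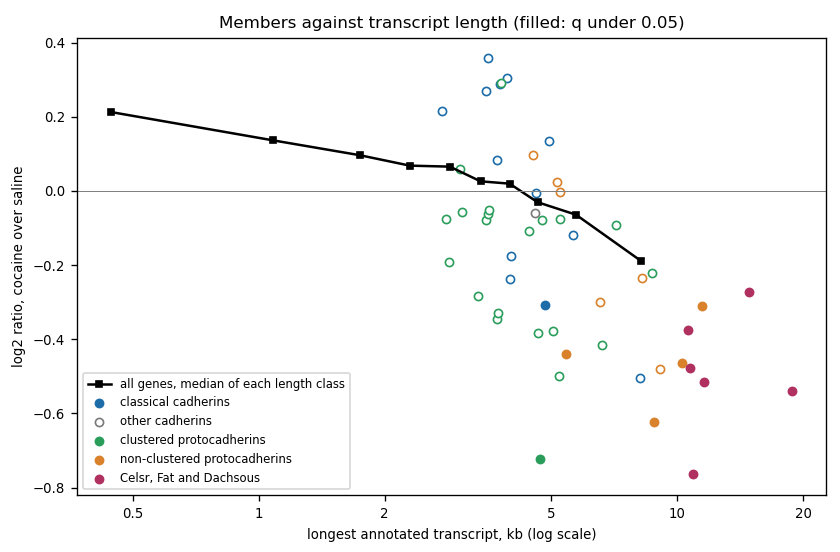
Log2 ratio of cocaine over saline against the longest annotated transcript in kb (log axis) for the 51 members, coloured by family and filled where q was under 0.05. Black squares are the medians of all genes in 10 length classes, which run from 0.21 at the left to -0.19 at the right. The line through the squares ends at 8190 nucleotides, and most filled points lie beyond that end and below its last value. The median of the other genes of at least 10000 nucleotides, -0.29, is not drawn.

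Non-clustered protocadherins were the other family with several called members. Of 11 genes 4 were called lower and 0 higher, and 8 of the 10 at a mean of 1 FPKM or more had a log2 ratio below 0, with a median of -0.31. All 4 delta-1 genes, which carry a binding motif for protein phosphatase 1 in their cytoplasmic tail, lay below 0 (median -0.46). The 5 delta-2 genes, whose tail can recruit the WAVE complex, were mixed (median -0.23, 3 below 0).

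Among delta-1 genes, Pcdh1 was the most abundant, with 45.9 FPKM in cocaine and 62.2 FPKM in saline (log2 ratio -0.44 ± 0.08). Pcdh7, at chr5:58109260-58520590 on mm9, had 7.64 FPKM in cocaine and 11.8 FPKM in saline (-0.62 ± 0.11), the lowest ratio of the family at a mean of 1 FPKM or more. Values of q were 5.80e-07 for Pcdh1 and 8.09e-07 for Pcdh7 in the authors' deposited table. Pcdh9 had 12.2 FPKM in cocaine and 15.1 FPKM in saline (-0.30 ± 0.12), and the X-linked Pcdh11x had 4.01 FPKM in cocaine and 5.60 FPKM in saline (-0.48 ± 0.19). Neither passed the threshold, with q of 0.0750 for Pcdh9 and 0.0755 for Pcdh11x in the authors' deposited table.

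Among delta-2 genes, Pcdh17, which in mice limits presynaptic vesicle assembly in corticobasal ganglia circuits, was called lower with 10.3 FPKM in cocaine and 12.7 FPKM in saline (log2 ratio -0.31 ± 0.11). Pcdh19, an X-linked gene mutated in a human epilepsy of females, was also called lower with 4.30 FPKM in cocaine and 5.93 FPKM in saline (-0.46 ± 0.15). In the authors' deposited table q was 0.0442 for Pcdh17 and 0.0197 for Pcdh19. Pcdh10, which takes part in MEF2-driven synapse elimination in mouse neurons, had 48.8 FPKM in cocaine and 57.4 FPKM in saline (-0.23 ± 0.09) and q of 0.0789 in the authors' deposited table. Pcdh8, known as arcadlin and induced by neuronal activity, lay above 0 without passing the test, at 7.63 FPKM in cocaine and 7.14 FPKM in saline (0.10 ± 0.13, 95% interval -0.15 to 0.35). Pcdh18, the last delta-2 gene, stood at 1.92 FPKM in cocaine and 1.88 FPKM in saline. Pcdh20 and Pcdh12 were placed in neither delta class. Pcdh20 stood at 1.15 FPKM in both groups. Pcdh12, a protocadherin of endothelium, was near 0 with 0.0342 FPKM in cocaine and 0.0569 FPKM in saline (-0.74 ± 0.85).

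Transcript length differed within this family too. Pcdh17 and Pcdh19 have transcripts of 11451 and 10289 nucleotides, Pcdh7 of 8785 and Pcdh1 of 5416. Against the median of its length class, the log2 difference was -0.43 for Pcdh7, -0.38 for Pcdh1, -0.28 for Pcdh19 and -0.12 for Pcdh17. Pcdh17 and Pcdh19 also exceed 10000 nucleotides, so the limit given for the Celsr, Fat and Dachsous genes holds for them too. The family median was -0.18 after that centring and -0.12 over the members alone in their printed interval, against -0.31 as first given.

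Clustered protocadherins had the highest summed level of the families, 253.6 FPKM in cocaine and 273.4 FPKM in saline, and 1 of their 24 entries was called lower and 0 higher. The alpha and gamma clusters each appear as a single entry. The entry named Pcdha1 spans 257 kb of chromosome 18, where RefSeq lists 14 alpha genes, and the entry named Pcdhga11 spans 168 kb, where it lists 21 gamma genes, so both are read here as values for a cluster and not for an isoform. The gamma entry, at 174.5 FPKM in cocaine and 184.4 FPKM in saline, had a log2 ratio of -0.08 ± 0.07 (95% interval -0.21 to 0.05). The alpha entry, at 22.7 FPKM in cocaine and 23.9 FPKM in saline, had a log2 ratio of -0.08 ± 0.07 (95% interval -0.22 to 0.07). Values of q were 0.563 for the gamma entry and 0.669 for the alpha entry in the authors' deposited table. A switch between isoforms within either cluster would not show in these entries.

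The beta cluster is resolved gene by gene, since each beta protocadherin is a single-exon gene with a promoter of its own. Of its 22 genes 20 were lower in cocaine and 2, Pcdhb3 and Pcdhb12, were higher, and Pcdhb21 alone was called. Pcdhb21 had 0.960 FPKM in cocaine and 1.58 FPKM in saline (log2 ratio -0.72 ± 0.22, q of 0.0137 in the authors' deposited table). Pcdhb17, the most abundant beta gene, had 7.45 FPKM in cocaine and 9.71 FPKM in saline (-0.38 ± 0.14). Pcdhb16 had 1.88 FPKM in cocaine and 2.65 FPKM in saline (-0.50 ± 0.18), and Pcdhb22 had 3.31 FPKM in cocaine and 4.41 FPKM in saline (-0.42 ± 0.16). These 3 missed the threshold with q of 0.0536 for Pcdhb17, 0.0557 for Pcdhb16 and 0.0801 for Pcdhb22 in the authors' deposited table. Pcdhb3 had 2.03 FPKM in cocaine and 1.66 FPKM in saline (0.29 ± 0.21).

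Summed over the 22 genes the beta cluster reached 56.4 FPKM in cocaine and 65.1 FPKM in saline, a log2 ratio of the sums of -0.21. The median gene had 1.93 FPKM in cocaine and 2.21 FPKM in saline. The order of the genes was much alike in the groups, with Pcdhb17, Pcdhb20 and Pcdhb9 on top in both and a Spearman correlation of levels of 0.94 across the 22 genes, which are near-identical in part, so that reads could be split among them. The implied standard errors of single beta genes had a median of 0.21 on the log2 scale. The median of the clustered protocadherins as a family was -0.11 before length centring and -0.12 after it.

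**Figure D4:**
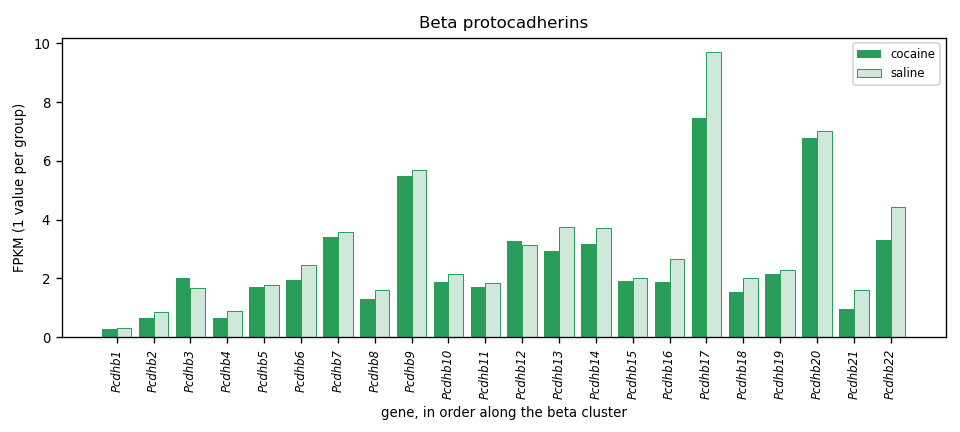
FPKM of the 22 beta protocadherins in their order along the cluster, dark bars for cocaine and light bars for saline, 1 value per group. The dark bar is the lower one at 20 genes, and the tallest pairs are Pcdhb17, Pcdhb20 and Pcdhb9.

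Classical cadherins showed no common direction. Of 15 genes 1 was called lower and 0 higher, and of the 13 at a mean of 1 FPKM or more 6 had a log2 ratio below 0 and 7 above it, with a median of 0.08. The called gene was Cdh2, N-cadherin, the main adhesion cadherin of excitatory synapses. It had 21.6 FPKM in cocaine and 26.7 FPKM in saline (log2 ratio -0.31 ± 0.10, q of 0.0162 in the authors' deposited table). Its transcript of 4843 nucleotides lies in a length class with a median of -0.03.

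The 13 type II cadherins, which differ in expression between neuron types and take part in circuit wiring, held no called member. Cdh22 had 17.99 FPKM in cocaine and 16.96 FPKM in saline (log2 ratio 0.08 ± 0.10), Cdh11 had 14.4 FPKM in cocaine and 15.7 FPKM in saline (-0.12 ± 0.12), and Cdh8 had 13.7 FPKM in both groups (-0.01 ± 0.11). The 95% interval for Cdh8 was -0.21 to 0.20, so these values do not show that its level was the same. Cdh9 and Cdh10, close relatives on chromosome 15, were the members above 0 with an unadjusted p under 0.05. Cdh9, which directs mossy fibre synapses in the mouse hippocampus, had 5.19 FPKM in cocaine and 4.05 FPKM in saline (0.36 ± 0.18), and Cdh10 had 6.83 FPKM in cocaine and 5.59 FPKM in saline (0.29 ± 0.14). Their q values in the authors' deposited table were 0.229 and 0.19. Cdh6, the third gene of that subgroup and also on chromosome 15, lay on the other side with 1.55 FPKM in cocaine and 2.19 FPKM in saline (-0.50 ± 0.21, q of 0.12 in the authors' deposited table). The endothelial Cdh5 had 1.92 FPKM in cocaine and 2.26 FPKM in saline (-0.24 ± 0.18).

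Beside these, the entry that names Cdh4 (R-cadherin, another type I cadherin of neural tissue) together with the predicted gene Gm10711 was singled out after its values were seen. It is not counted among the members, since its symbol field holds both names. It had 9.61 FPKM in cocaine and 16.6 FPKM in saline (log2 ratio -0.79 ± 0.17, q of 5.20e-05 in the authors' deposited table). How that signal divides between Cdh4 and Gm10711 cannot be read from the table.

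Of the 3 other cadherins none was called. Cdh13, or T-cadherin, which is held in the membrane by a lipid anchor and has no cytoplasmic tail, had 69.9 FPKM in cocaine and 72.9 FPKM in saline (log2 ratio -0.06 ± 0.08, 95% interval -0.21 to 0.09). Cdh23, the tip-link cadherin of hair cells, was low at 0.865 FPKM in cocaine and 0.472 FPKM in saline (0.87 ± 0.52). Its interval also holds 4632428N05Rik, at 17.7 FPKM in cocaine and 33.6 FPKM in saline, which was called lower with q of 5.79e-10 in the authors' deposited table. Cdh26 was listed at 0.156 FPKM in cocaine and 0.177 FPKM in saline.

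Set side by side, the families therefore differed in their medians, with -0.50 for Celsr, Fat and Dachsous, -0.31 for the non-clustered protocadherins, -0.11 for the clustered ones and 0.08 for the classical cadherins. With the length class median taken off, the values were -0.31, -0.18, -0.12 and 0.07 in the same order. Over entries alone in their printed interval they were -0.53, -0.12, -0.19 and 0.21, so that the protocadherin families changed places. Without the minimum of 1 FPKM the median of the classical cadherins was -0.01. Differences between the families were not tested, since genes are not replicates. The summed level was 92.7 FPKM in cocaine and 122.1 FPKM in saline for Celsr, Fat and Dachsous, 143.9 FPKM in cocaine and 181.0 FPKM in saline for the non-clustered protocadherins, and 103.4 FPKM in cocaine and 105.6 FPKM in saline for the classical cadherins.

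The genes that cadherins work with were read from lists made with earlier results of these data known, and the same call rule was used, by which 5.76% of all genes tested were lower and 6.1% higher (7.27% and 7.52% at a mean of 1 FPKM or more). A count of 1 in 14 is thus near the share over all genes. Transcript length, with which the calls moved across all genes, was not taken into account for any of these lists. Of 14 tested catenin and junction genes 2 were called lower and 0 higher, and 12 of the 13 at a mean of 1 FPKM or more had a log2 ratio below 0 (median -0.16). Ctnnb1, which encodes beta-catenin, had 414.0 FPKM in cocaine and 462.3 FPKM in saline (-0.16 ± 0.05). Pvrl3, which encodes nectin-3, a cadherin-associated adhesion protein, had 3.29 FPKM in cocaine and 7.05 FPKM in saline (-1.10 ± 0.23). In the authors' deposited table q was 0.0319 for Ctnnb1 and 6.23e-05 for Pvrl3. Neither the plakophilin-related Pkp4, at 66.9 FPKM in cocaine and 107.1 FPKM in saline with an implied standard error of 0.65, nor Jup (plakoglobin), at 49.5 FPKM in cocaine and 57.7 FPKM in saline, was called.

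Of 14 planar cell polarity partners of Celsr, Fat and Dachsous 3 were called lower and 0 higher, and 12 lay below 0 (median -0.15). Fzd3, the frizzled receptor that acts with Celsr3 in mouse axon tracts, had 10.3 FPKM in cocaine and 16.1 FPKM in saline (log2 ratio -0.65 ± 0.14). Prickle2 had 21.8 FPKM in cocaine and 27.8 FPKM in saline (-0.35 ± 0.08), and Tiam1, an activator of Rac, had 32.1 FPKM in cocaine and 39.6 FPKM in saline (-0.30 ± 0.10). Values of q were 7.15e-05 for Fzd3, 3.09e-04 for Prickle2 and 0.0272 for Tiam1 in the authors' deposited table. The cytoplasmic adaptors Dvl1, at 46.9 FPKM in cocaine and 51.9 FPKM in saline, and Dvl2, at 23.3 FPKM in cocaine and 28.7 FPKM in saline, were not called.

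The 12 tested WAVE complex and kinase partners of the protocadherins went both ways, with 2 called higher, 1 called lower and a median of -0.00. The WAVE complex subunits Abi1 and Nckap1 rose. Abi1 had 88.5 FPKM in cocaine and 66.2 FPKM in saline (log2 ratio 0.42 ± 0.09), and Nckap1 had 148.4 FPKM in cocaine and 120.3 FPKM in saline (0.30 ± 0.07). Cyfip2, another subunit of the same complex, fell to 157.9 FPKM in cocaine, against 198.0 FPKM in saline (-0.33 ± 0.12). In the authors' deposited table q was 1.09e-04 for Abi1, 4.13e-04 for Nckap1 and 0.0456 for Cyfip2. Ptk2b, at 208.6 FPKM in cocaine and 236.5 FPKM in saline, and Rac1, at 180.6 FPKM in cocaine and 182.9 FPKM in saline, were not called.

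Of 14 regulators of clustered protocadherin promoters 1 was called lower and 0 higher (median -0.07). That gene was Wiz, a zinc finger protein that occupies clustered protocadherin promoters in mouse brain, with 8.81 FPKM in cocaine and 12.2 FPKM in saline (log2 ratio -0.47 ± 0.10, q of 5.94e-05 in the authors' deposited table). The cohesin subunit Smc1a had 52.9 FPKM in cocaine and 56.3 FPKM in saline, and Ctcf had 24.1 FPKM in cocaine and 25.9 FPKM in saline, neither called. Of 7 genes of cadherin shedding 0 were called at q under 0.05. The gamma-secretase gene Ncstn had 33.9 FPKM in cocaine and 35.2 FPKM in saline, and Adam10, a protease that cleaves N-cadherin, had 13.0 FPKM in cocaine and 13.7 FPKM in saline.

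**Figure D5:**
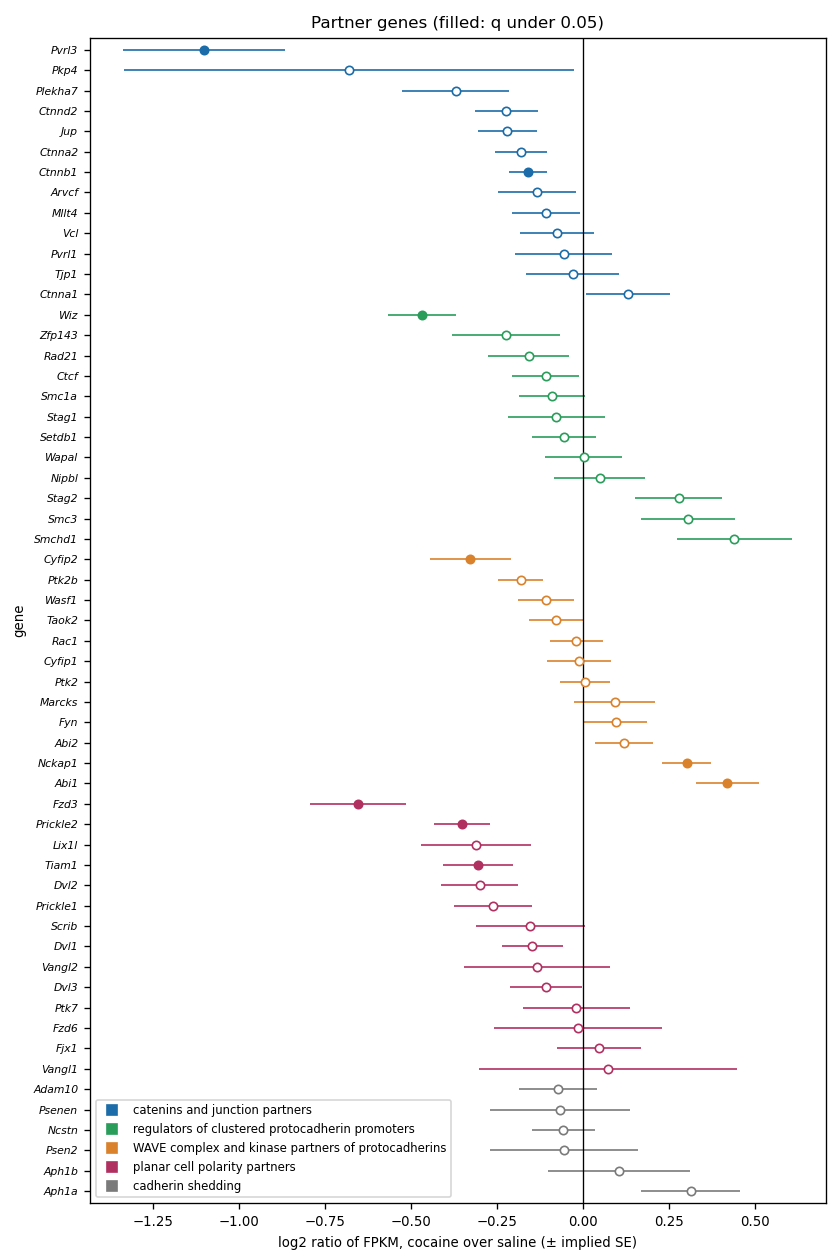
Log2 ratio of cocaine over saline, with implied standard error, for partner genes with a mean of at least 1 FPKM, in 5 lists; filled points have q under 0.05. The 2 filled points above 0 are Nckap1 and Abi1, and the lowest filled point is Pvrl3 at -1.10.

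The tissue carried the markers of striatal projection neurons, with a summed level of 3950.3 FPKM in cocaine and 3562.2 FPKM in saline over 10 genes, none at 0. Markers of some other cells differed between the groups. The 9 choroid plexus markers summed to 49.9 FPKM in cocaine and 143.3 FPKM in saline, with Ttr and Enpp2 called lower. Ttr alone had 9.46 FPKM in cocaine and 93.4 FPKM in saline, and the other 8 summed to 40.4 FPKM in cocaine and 49.8 FPKM in saline, 6 of them lower and 2 higher in cocaine. The 7 cortical excitatory neuron markers summed to 28.2 FPKM in cocaine and 19.0 FPKM in saline, with Slc17a7 called higher. Slc17a7 alone had 21.4 FPKM in cocaine and 12.99 FPKM in saline. The other 6 summed to 6.83 FPKM in cocaine and 5.98 FPKM in saline, 1 of them lower and 5 higher in cocaine. Sums of the astrocyte markers were 243.6 FPKM in cocaine and 253.2 FPKM in saline (0 of 6 called). The oligodendrocyte markers summed to 1912.6 FPKM in cocaine and 2012.2 FPKM in saline (2 of 5 called, Cnp and Mbp, lower). For the endothelial markers the sums were 44.5 FPKM in cocaine and 39.1 FPKM in saline (2 of 7 called, Slco1a4 higher and Pecam1 lower). Microglial markers summed to 75.0 FPKM in cocaine and 77.0 FPKM in saline (1 of 6 called, Tmem119, higher). Oligodendrocyte precursor markers summed to 9.96 FPKM in cocaine and 11.2 FPKM in saline (1 of 2 called, Cspg4, lower). Mural and fibroblast markers summed to 33.9 FPKM in cocaine and 39.3 FPKM in saline (0 of 7 called). The part of these cells in the cadherin values was not tested.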

How the data were processed

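RNA from 3 pools per group was sequenced. The submitters' processing notes name CASAVA, TopHat and Cuffdiff, with mm9 and NCBIM37, and give no versions or roles. The authors deposited 1 FPKM value per gene and group (the unit is read from the layout of the table, whose header does not print it). They also deposited an unadjusted p-value, a test statistic and a q value, and these last 2 are read as a score: the statistic runs opposite to cocaine over saline and was turned, and q reaches above 1. The sources used here do not say whether pools entered that comparison as replicates. Gene intervals are on mm9, written 1-based after 21 of 21 mitochondrial genes matched the reference with 1 added.

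From these values, log2 ratios, implied standard errors, 95% intervals, medians and counts were computed with Python 3.11.15 and pandas 2.3.3, and the scripts were tested on simulated data. No test of group values was added. A gene was called at status OK and q under 0.05. Medians use genes above 0 in both groups with a mean of at least 1 FPKM. Transcript lengths come from the GENCODE annotation by symbol, for 96.2% of 14193 such genes and all 61 members. Promoter windows are from RefSeq, for members outside chromosome 18. Where a symbol has several entries the one with the highest mean was kept. In the cadherin shedding list, 1 gene is not reported here.

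The members, gene lists and comparisons were chosen with earlier results of these data known. Named are all called members, the 3 most abundant and the lowest and highest ratio of each family at 1 FPKM or more in both groups, members with q of 0.05 to 0.1, and called partners with their 2 most abundant uncalled list mates; other members are named for their role, and the Cdh4 entry and the outer cadherin list were chosen after values were seen. Alternatives were other thresholds, a 1.5-fold minimum, entries alone in their interval, a pseudocount of 1 and centring on all genes or on length classes.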

Additional observations from a re-analysis of the deposited data

How the results depend on the processing

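Under all settings tried 0 members were called higher. Stricter thresholds and smaller sets of entries could not have given one, since 0 were called higher at q under 0.05. The looser q under 0.1 could have, and it gave 0 higher and 18 lower. No calls were made after length centring. The number called lower depended on the settings, with 6 at q under 0.01 and 3 with at least a 1.5-fold difference, against 12 of 61. The share of all genes at that fold was not computed. Of the 42 entries alone in their interval 7 were called lower, and likewise 7 of the 42 overlapping no other entry. The share of all genes called lower in either set was not computed. The set free of overlap and the median coding length were chosen after seeing the data. The median log2 ratio of the non-clustered protocadherins was -0.12 over entries alone in their interval, -0.18 centred on length classes by longest transcript and -0.16 by median coding length, against -0.31. That of Celsr, Fat and Dachsous was -0.31 and -0.35 under these centrings, against -0.50. At q under 0.01, 1 catenin and junction gene was called, against 2, and at q under 0.1, 2 promoter regulators were called, against 1. Length centring moved 13 of 51 single members by at least their own implied standard error, a pseudocount of 1 moved 5 of 61 and centring on all genes moved 0; no called member changed sign. No paired analysis was possible because the table gives 1 value per group, and for the same reason leaving out a pool was not run. Depth is unknown, so no counting limit can be set for the 10 members under 1 FPKM.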

Other observations

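Outside the members, other genes with cadherin repeats were read from a list made after the data were seen (calsyntenins, desmogleins, desmocollins, cadherin-related genes and Ret). Of 14 tested, 1 was called lower and 0 higher at q under 0.05. Over all genes tested 5.76% were called lower and 6.1% higher, so 1 of 14 is near that share. A mean of 1 FPKM was not reached by 9 of the 14, the called one among them. The called gene, Cdhr3, a cadherin-related gene of ciliated epithelium, was low at 0.117 FPKM in cocaine and 0.387 FPKM in saline (log2 ratio -1.72 ± 0.56, q of 0.0205 in the authors' deposited table). The calsyntenins, which act at synapses and in axonal transport, were abundant and not called. Clstn1 had 266.6 FPKM in cocaine and 272.2 FPKM in saline, Clstn3 had 130.3 FPKM in cocaine and 130.0 FPKM in saline, and Clstn2 had 6.47 FPKM in cocaine and 7.91 FPKM in saline (-0.29, q of 0.116 in the authors' deposited table).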
